A study of Caenorhabditis elegans with 2 samples.

Results

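LIN-13 peaks at promoters that point one way, with protein-coding starts on a single strand, were described in Caenorhabditis elegans. A peak was counted when its summit lay between 1000 bp upstream and 200 bp downstream of the outermost start of at least 1 protein-coding gene, and when every such gene lay on the same strand. This gave 1156 one-strand promoter peaks among 3013 nuclear peaks (38.4%), which left 571 peaks at divergent promoters, where starts on both strands lay in the window, and 1286 peaks in no such window. Among the nuclear peaks only gene positions entered that choice. The peaks themselves came from a list thresholded by the irreproducible discovery rate, which rests on peak strength in both replicates. The source was chromatin immunoprecipitation and sequencing of whole L2 larvae, pooled male and female, in a single group of 2 biological replicates. The strain, OP49, carries unc119(ed3) and the transgene wgIs49, which holds lin-13 tagged with TY1, EGFP and FLAG and an unc119 marker, and both replicates share all of it. The group has limits as a model: the tagged protein came from a transgene, whole animals mix all cell types, and no untagged group was analysed here. Each list of replicate 1, replicate 2 and the pooled replicates held 30000 entries, no read counts were given, and the depth is unknown.

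The LIN-13 protein has many zinc fingers and belongs to synMuv B, a class of chromatin regulators that keep larval epidermal cells of C. elegans from taking on vulval fates. The class includes the DREAM complex, which contains the Rb-family protein LIN-35 and the DNA-binding subunit LIN-54 and represses cell cycle genes, and a heterochromatin branch that includes HPL-2. Many C. elegans mRNAs are trans-spliced, so an annotated start need not be the base at which transcription begins. Neighbouring genes on 1 strand can also form an operon that is read from a single promoter.

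The sequences below run from 75 bp before to 75 bp after the summits of 9 of the 12 strongest one-strand peaks, and are shown because the word counts further on were made in windows of this kind. They are given 5′ to 3′ on the strand of the gene, from the WBcel235 reference, which has the chromosomes of ce11. Capitals mark matches, on either strand, to any of 7 words. A CHR-like word, named after the element bound by LIN-54, is TTTGAA, with TTCGAA as its other form. An E2F-like word is TTTCCCGC, and the forms TTTCGCGC and TTTGGCGC and TTTGCCGC were accepted too. The Sp1-like word is GGGCGG, the E-box is CACGTG, the GAGA word is GAGAGA, and a T-block is TTTTTTT. The last word, known from C. elegans promoters, is CTGCGTCTC.
rpl-3: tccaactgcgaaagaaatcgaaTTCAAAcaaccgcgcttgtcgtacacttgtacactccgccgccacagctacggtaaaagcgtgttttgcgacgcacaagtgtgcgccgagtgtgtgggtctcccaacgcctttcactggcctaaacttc
cdc-48.1: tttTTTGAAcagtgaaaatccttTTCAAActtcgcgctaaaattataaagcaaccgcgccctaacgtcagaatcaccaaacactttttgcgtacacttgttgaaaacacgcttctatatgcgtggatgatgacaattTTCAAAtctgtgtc
rpl-35: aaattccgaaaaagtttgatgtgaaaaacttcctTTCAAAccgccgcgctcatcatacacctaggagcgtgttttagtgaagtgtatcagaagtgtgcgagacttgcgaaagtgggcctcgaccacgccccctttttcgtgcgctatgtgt
cox-5A: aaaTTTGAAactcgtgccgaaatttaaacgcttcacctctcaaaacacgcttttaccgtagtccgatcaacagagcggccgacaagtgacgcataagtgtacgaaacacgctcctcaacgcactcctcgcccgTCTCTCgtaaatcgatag
Y39B6A.43: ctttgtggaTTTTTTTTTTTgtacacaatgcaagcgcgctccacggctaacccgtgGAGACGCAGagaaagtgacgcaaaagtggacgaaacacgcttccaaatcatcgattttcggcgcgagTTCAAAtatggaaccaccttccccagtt
puf-9: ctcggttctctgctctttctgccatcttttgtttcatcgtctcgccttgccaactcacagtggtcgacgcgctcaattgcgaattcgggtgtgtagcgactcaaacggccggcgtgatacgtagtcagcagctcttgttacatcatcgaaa
lin-13: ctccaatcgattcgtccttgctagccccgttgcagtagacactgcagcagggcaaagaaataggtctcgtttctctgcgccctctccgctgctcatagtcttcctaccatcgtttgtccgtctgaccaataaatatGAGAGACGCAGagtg
sec-61.G: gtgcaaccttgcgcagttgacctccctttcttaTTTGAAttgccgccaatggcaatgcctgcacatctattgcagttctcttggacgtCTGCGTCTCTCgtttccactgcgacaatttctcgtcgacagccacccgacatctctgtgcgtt
K12H4.5: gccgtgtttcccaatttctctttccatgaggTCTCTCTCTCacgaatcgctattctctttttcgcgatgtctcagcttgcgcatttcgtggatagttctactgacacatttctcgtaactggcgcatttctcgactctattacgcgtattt
Those windows lie at III:3867497-3867647 on the plus strand, II:10563506-10563656 on the minus strand, III:7854607-7854757 on the plus strand, III:12905121-12905271 on the plus strand, V:18967767-18967917 on the minus strand, X:5841236-5841386 on the plus strand, III:7710202-7710352 on the minus strand, V:10897299-10897449 on the minus strand and III:8043908-8044058 on the plus strand. A CHR-like word is present in 6 of the 9 windows, those of rpl-3, cdc-48.1, rpl-35, cox-5A, Y39B6A.43 and sec-61.G. The lin-13 window holds GAGA and CTGCGTCTC overlapping each other, and the puf-9 window holds none of the 7 words. Among the windows of the 12 not shown, that of cox-5B holds a CHR-like word. Those of nspc-17 and serp-1.1 hold none of the 7 words. A match is a description of the letters and not a mapped binding site.

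Signal is given as a rank, where 1 is the strongest, because nothing states the scale of the deposited signal. Replicate ranks are places among the 30000 entries of each replicate, and pooled ranks are places among the 3040 entries of the thresholded list. The strongest one-strand peak lay upstream of rpl-3 (WBGene00004414), a large-subunit ribosomal protein gene, at III:3867359-3867758 on ce11. Its rank was 2 in replicate 1 and 7 in replicate 2, with a pooled rank of 6. The summit lay 282 bp before the start, between protein-coding genes. The next, at II:10563410-10563731, belonged to cdc-48.1, whose product is an ATPase that pulls proteins out of complexes. Its rank was 4 in replicate 1 and 12 in replicate 2, with a pooled rank of 8, and its summit lay 174 bp before the start. The peak of rpl-35, another large-subunit gene, ranked 5 and 22 in the replicates and had a pooled rank of 16. Peaks of 2 cytochrome c oxidase subunit genes followed the same order: cox-5A ranked 10 and 25, and cox-5B ranked 26 and 53. In these pairs of replicate ranks, replicate 1 had the higher place each time.

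The peak at lin-13 itself (WBGene00003002), at III:7710120-7710443, had ranks of 12 and 55 in the replicates and a pooled rank of 41. Its summit lay 786 bp before the start, and endogenous sequence and transgene copies cannot be told apart there. The peak of puf-9, which encodes a Pumilio-family RNA-binding protein, ranked 35 and 34, so the replicates placed it side by side. The peak of sec-61.G, a subunit of the channel that moves proteins into the endoplasmic reticulum, ranked 33 and 48 and lay also in the window of F32D8.13. The remaining peaks among the 12 strongest belonged to Y39B6A.43 (ranks 9 and 29), nspc-17 (24 and 27), serp-1.1 (28 and 56) and K12H4.5 (36 and 49). These 4 peaks held pooled ranks from 23 to 49. Each of the 12 was above rank 60 in both replicates, and 0 of the 12 windows held a 36-base stretch found elsewhere in the genome.

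The 1156 peaks were spread over every nuclear chromosome and over both strands. Chromosome I held 215, II held 195, III held 209, IV held 177, V held 166 and X held 194, with 586 peaks at plus-strand genes and 570 at minus-strand genes. A single gene had its start in the window at 1121 peaks, and 2 genes on the same strand did at 35. The peaks touched 1153 of the 19973 nuclear protein-coding genes (5.77%); 38 of these genes had 2 such peaks and 12 also had a divergent promoter peak. In 4 of the 1156 peaks the interval was shared, as 2 intervals each held a pair of summits.

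Most summits lay upstream of the start and outside genes. Of the 1156, 1078 (93.3%, Wilson 95% interval 91.7 to 94.6) were upstream. Over all 1156 the median position was 250.5 bp before the start, with quartiles of 437 and 131 bp before it. The 978 summits between protein-coding genes made up 84.6%, while 77 lay in introns, 77 in untranslated exons and 24 in coding exons. Of those within a gene, 75 lay in the gene whose start they were near, 52 in another gene on the same strand and 51 in a gene on the other strand. The upstream neighbour lay on the same strand at 684 peaks (59.2%), at a median gap of 700 bp, and on the other strand at 414 peaks (35.8%), at a median gap of 3222 bp. At 172 peaks (14.9%) a non-coding gene other than a piRNA started on the other strand within the window, so one-strand refers to protein-coding genes.

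One-strand summits were spread over a longer stretch than divergent summits. Within 250 bp upstream lay 500 one-strand peaks (43.3%), against 431 divergent peaks (75.5%). Between 250 and 500 bp lay 331 one-strand peaks (28.6%) against 91 divergent peaks (15.9%), and between 750 and 1000 bp lay 111 (9.60%) against 1. A divergent summit has at least 2 starts to be near, and the distance is to the nearest, so the classes are not alike in this measure and no test was made. The median pooled rank of one-strand peaks was 1247 within 250 bp upstream, 1353 from 250 to 500 bp, 1636 from 500 to 750 bp, 1598 from 750 to 1000 bp and 2061.5 downstream of the start.

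**Figure D1:**
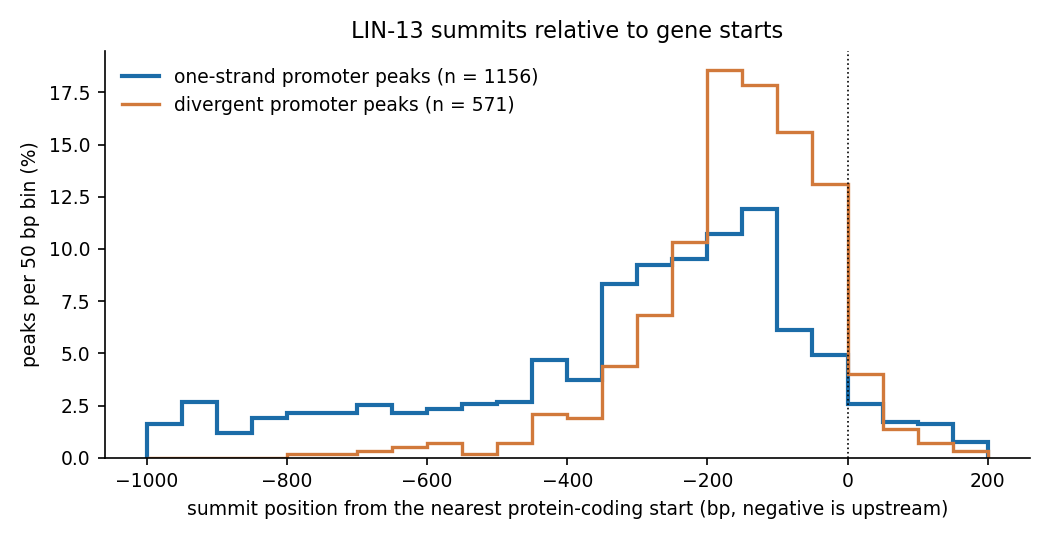
Share of peaks (%) in 50 bp bins against the position of the summit from the nearest protein-coding start (bp, negative is upstream), for one-strand (n = 1156) and divergent (n = 571) promoter peaks. Of one-strand peaks 43.3% lie in the 250 bp upstream, against 75.5% of divergent peaks, and the one-strand line stays above 0 out to 1000 bp.

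At the edges of the window the ranks of peaks kept and left out overlapped. Just inside the upstream edge, the peaks of F56F11.2 and dhs-8, both 998 bp before their starts, had pooled ranks of 2943 and 744. Just outside it, those of C04A11.2 (1001 bp) and M163.11 (1005 bp) ranked 2051 and 2924. Inside the downstream edge, hphd-1 (194 bp after its start) ranked 2729 and hrpk-1 (191 bp), which encodes an hnRNP K-type RNA-binding protein, ranked 277, while outside it mak-1 (203 bp) ranked 2904 and ssup-72 (233 bp), a Ssu72-type phosphatase gene, ranked 1332.

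Replicate support was then counted. Among the 3040 strongest entries of replicate 1, an overlapping entry was found for 985 of 1156 one-strand peaks (85.2%), and among those of replicate 2 for 1013 (87.6%). Both replicates gave one for 861 peaks (74.5%) and neither did for 19, while the full lists held an entry for 1153 peaks in replicate 1 and 1143 in replicate 2. Because the thresholded list derives from these replicates, such overlaps are no independent check of it. The median rank of one-strand peaks was 1433 in replicate 1 and 1367 in replicate 2. Across the 1140 peaks with an entry in both, the ranks had a Spearman rho of 0.72, against 0.82 over 562 divergent peaks and 0.57 over 1276 other nuclear peaks. These points share 2 libraries, and the values are descriptive.

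Support in both replicates was then counted by signal within the one-strand set. Support means an overlapping entry among the strongest of each replicate, and pooled signal comes from the same replicates. A fall in support from the strongest to the weakest set is therefore built into the measure and is no separate result. The peaks were divided by pooled signal into 4 sets of 289, of which both replicates supported 288 in the strongest set (99.7%), 283 in the next (97.9%), 219 in the one after (75.8%) and 71 in the weakest (24.6%). Median GC content within 75 bp of the summit was 46.4%, 43.7%, 42.4% and 41.1% in the same order. CHR-like words occurred in 43.9%, 36.7%, 35.3% and 35.3% of the sets, and T-blocks in 16.6%, 17.3%, 20.8% and 25.6%. The strongest set had the highest GC and CHR-like shares and the lowest T-block share of the 4, as a description without a test.

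**Figure D2:**
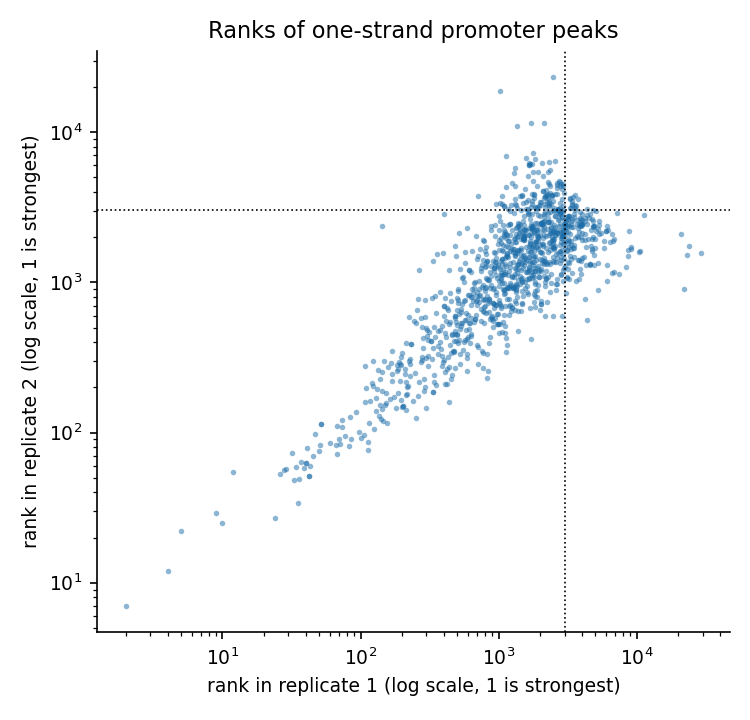
Rank of each one-strand promoter peak with an entry in both replicates (n = 1140) in replicate 1 (x axis, log scale) and replicate 2 (y axis, log scale), where 1 is the strongest of 30000. Dotted lines mark rank 3040; 861 peaks have an overlapping entry stronger than both lines, and the points spread out as ranks get larger.

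Among thresholded peaks, one-strand ones were on the whole weaker and less often shared than divergent ones. In all, 12 properties that the split by gene starts did not use were compared between the 1156 one-strand and 571 divergent peaks. Two-sided Fisher's exact tests were used, and 8 of the 12 (66.7%) passed 0.05. Benjamini-Hochberg adjustment was over 13 tests, since the share of entries that were thresholded, described in the next paragraph, was fitted with them. Among the 1520 strongest entries of the list were 626 one-strand peaks (54.2%) against 367 divergent peaks (64.3%), an odds ratio of 0.657 (95% interval 0.531 to 0.811, Fisher's exact adjusted p = 0.000174). Support in both replicates was found for 861 (74.5%) against 470 (82.3%), an odds ratio of 0.627 (0.482 to 0.812, Fisher's exact adjusted p = 0.000555). The first difference had an adjusted p of 0.319 by Fisher's exact test among summits 0 to 250 bp upstream, and the second had one of 0.319 there, 0.106 when windows ended 500 bp before and 100 bp after starts, and 0.523 among the 1520 strongest entries. Strength and replicate support come from the same replicates as the thresholded list, so these 2 comparisons hold among thresholded peaks only. They are also not separate results, although both count among the 8. Among the 1520 strongest entries, both replicates supported 614 of 626 one-strand peaks (98.1%) and 363 of 367 divergent peaks (98.9%). The tests count peaks from 2 libraries, so they cover counting error and not variation between cultures.

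The share of entries that reached the thresholded list is described without a test, because membership of that list is part of how the peaks were chosen. Of 6844 pooled entries with their summit at a one-strand promoter, 1156 were thresholded (16.9%), against 571 of 1118 at divergent promoters (51.1%) and 3013 of all 29973 nuclear entries (10.1%).

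The X chromosome held 194 one-strand peaks (16.8%) and 24 divergent peaks (4.20%), an odds ratio of 4.59 (2.95 to 7.44, Fisher's exact adjusted p = 1.21e-14). It lay between 2.23 and 5.18 over 13 alternatives, lowest when genes of every biotype but piRNA decided which promoters are one-strand, with 159 of 984 one-strand peaks against 59 of 743 divergent peaks on X. Entries that were not thresholded showed an unequal split too, with 977 of 5688 at one-strand promoters on X (17.2%) against 41 of 547 at divergent promoters (7.495%). Repeat-masked sequence was less common at one-strand summits: 191 (16.5%) had at least 50% of the bases within 100 bp soft-masked, against 170 divergent summits (29.8%). That odds ratio was 0.467 (0.366 to 0.596, Fisher's exact adjusted p = 2.34e-09), and 0.705 when genes of every biotype but piRNA decided. Among entries that were not thresholded the masked share was 27.9% at one-strand and 25.8% at divergent promoters.

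The words GAGA and CTGCGTCTC were more common at one-strand peaks than at divergent ones. GAGA occurred within 75 bp of 378 one-strand summits (32.7%) against 123 divergent summits (21.5%), an odds ratio of 1.77 (1.39 to 2.26, Fisher's exact adjusted p = 3.90e-06). CTGCGTCTC occurred at 149 (12.9%) against 41 (7.18%), an odds ratio of 1.91 (1.32 to 2.82, Fisher's exact adjusted p = 0.000565). The GAGA difference passed in all 14 alternatives, while CTGCGTCTC had an adjusted p of 0.0766 within 50 bp of the summit and 0.0542 among summits 0 to 250 bp upstream by the same test. In regions of the same length, GAGA was found in 14.6% of 5688 one-strand entries that were not thresholded, in 12.05% of all 19973 promoters, centred 150 bp upstream of the start, and in 44.6% of the 1286 nuclear peaks in no promoter window. CTGCGTCTC was found in 2.44%, 1.80% and 13.5% of the same regions.

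CHR-like words and T-blocks ran the other way. A CHR-like word lay at 437 one-strand summits (37.8%) against 263 divergent summits (46.1%), an odds ratio of 0.712 (0.578 to 0.877, Fisher's exact adjusted p = 0.00200). T-blocks lay at 232 (20.1%) against 143 (25.04%), an odds ratio of 0.752 (0.589 to 0.961, Fisher's exact adjusted p = 0.0312). The CHR-like call was lost in 5 of 14 alternatives, with the adjusted p reaching 0.353, and the T-block call in 6. Both words were frequent in the background, since 46.4% of all promoters held a CHR-like word and 34.0% a T-block.

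The other properties did not pass here, although Sp1-like words, GC content and the E-box did under some alternatives. E2F-like words lay at 73 one-strand summits (6.31%) against 40 divergent summits (7.01%), with an odds ratio interval of 0.591 to 1.37. Sp1-like words lay at 78 (6.75%) against 55 (9.63%), with an interval of 0.467 to 0.993, and the E-box lay at 59 (5.10%) against 21 (3.68%), with an interval of 0.833 to 2.47. The Fisher's exact adjusted p values were 0.606, 0.0566 and 0.242. GC content was above 43.05%, the median of promoter peaks, at 573 (49.6%) against 255 (44.7%), with an interval of 0.991 to 1.497 and an adjusted p of 0.0688 by the same test. By Fisher's exact test, Sp1-like words passed in 4 of 14 alternatives (lowest adjusted p = 0.00556), GC content in 3 with the same direction (lowest 0.000270) and in 1 with the opposite one (0.0372) and the E-box in 2 (lowest 0.0292). Without replicate 2, Sp1-like words had an odds ratio of 0.624 and the E-box 1.87, with Fisher's exact adjusted p values of 0.0190 and 0.0386. The intervals given above leave room for differences in size that these counts do not resolve. Median GC was 43.0% at one-strand and 42.4% at divergent summits, against 33.1% in one-strand entries that were not thresholded and 33.8% in all promoters.

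**Figure D3:**
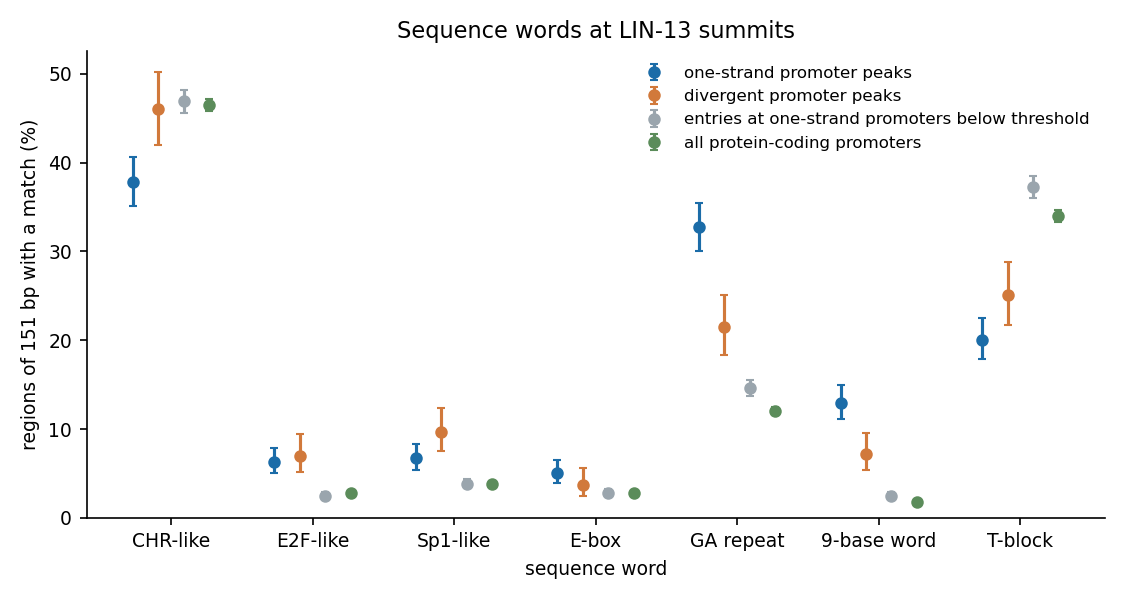
Share of regions of equal length (%, y axis) with a match to each of 7 sequence words (x axis) at one-strand promoter peaks, divergent promoter peaks, entries at one-strand promoters below the threshold, and all protein-coding promoters; bars are Wilson 95% intervals, and the 9-base word and GA repeat are CTGCGTCTC and GAGA of the text. The GA repeat stands at 32.7% in one-strand peaks, against 21.5%, 14.6% and 12.05% in the other 3 sets.

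Overlap among the words and their shares by distance are described without a test. GAGA was found at 99 of the 149 one-strand summits with CTGCGTCTC (66.4%, Wilson 95% interval 58.5 to 73.5) and at 279 of the 1007 without it (27.7%). The 2 words can overlap, as they do at lin-13, and 69 of the 149 (46.3%) had a GAGA match that shared no base with CTGCGTCTC. GAGA occurred in 39.6% of one-strand peaks 750 to 1000 bp upstream, 37.5% from 500 to 750 bp, 31.7% from 250 to 500 bp, 31.0% within 250 bp and 29.5% downstream of the start. CHR-like words had their highest share, 44.0%, within 250 bp upstream. None of the 7 words was found at 264 peaks (22.8%). Of the 1088 peaks with no 36-base stretch repeated elsewhere in the genome, 368 (33.8%) had GAGA, so the share was no lower there.

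Distances from the summit were then measured. The nearest match was at a median of 28.5 bp from the summit for GAGA and 27 bp for CTGCGTCTC, against 37.5 bp for CHR-like words and 45 bp for T-blocks. The nearest match lay within 25 bp of the summit at 44.4% of the peaks with GAGA, 47.7% of those with CTGCGTCTC, 27.7% of those with a CHR-like word and 24.6% of those with a T-block. No test was made of these positions.

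A one-strand promoter gives each match an orientation relative to the gene, which was counted at peaks with matches on a single strand. T-blocks read as T on the strand of the gene at 138 peaks and on the other strand at 73 (65.4% on the strand of the gene, Wilson 95% interval 58.8 to 71.5). CTGCGTCTC read on the strand of the gene at 87 peaks against 60 (59.2%, interval 51.1 to 66.8), and TTTGAA at 183 against 133 (57.9%, interval 52.4 to 63.2). As spelled here, GAGAGA read on the strand of the gene at 137 peaks against 211 (39.4%, interval 34.4 to 44.6). Sp1-like words did so at 26 against 51 (33.8%, interval 24.2 to 44.9). The side of 50% depends on the spelling named: TCTCTC, the reverse complement of GAGAGA, read on the strand of the gene at those 211 peaks. In that spelling GAGA tilts the same way as CTGCGTCTC, and the 2 counts are not separate, since the words can share bases. E2F-like words, at 40 against 30, had an interval of 45.5 to 68.1, which includes an even split. Over 12 alternatives the share stayed above 50% for T-blocks (62.1 to 71.0), CTGCGTCTC (55.3 to 66.1) and CHR-like words (51.7 to 59.6), and below it for GAGA (35.6 to 43.1) and Sp1-like words (27.4 to 40.3). The interval itself reached an even split in 5 of the 12 for CTGCGTCTC, 2 for CHR-like words, 2 for Sp1-like words, 1 for GAGA and 0 for T-blocks. Without replicate 1 CHR-like words stood at 53.0% (interval 47.4 to 58.6), and without replicate 2 CTGCGTCTC stood at 55.3% (46.5 to 63.8). The E-box is its own reverse complement and has no orientation. No such split is given for other promoters, so whether these tilts are particular to the peaks was not tested.

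**Figure D4:**
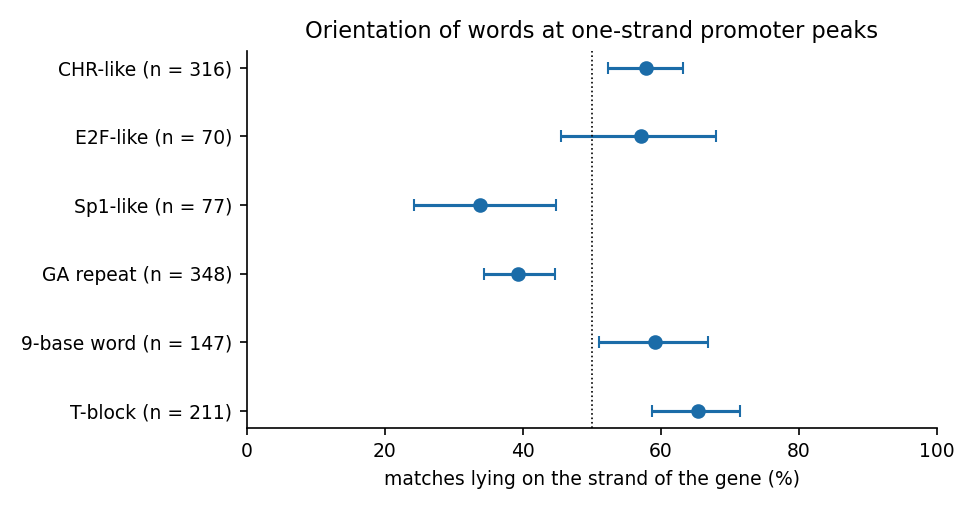
Share of matches (%, x axis) that read on the strand of the gene for 6 words (rows) at one-strand promoter peaks with matches on a single strand; bars are Wilson 95% intervals, n is the number of such peaks, and the dotted line is an even split of 50%. T-blocks lie highest at 65.4%, and Sp1-like words lowest at 33.8%, and only the E2F-like interval crosses the line. The side of the line depends on which spelling of a word is named, and the spellings are those of the text.

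Spacing to the next gene was counted because an operon would place genes close together on 1 strand. The next gene began within 500 bp on the same strand for 323 of 1153 genes with a one-strand peak (28.0%, Wilson 95% interval 25.5 to 30.7), 379 of 1171 genes with a divergent peak (32.4%, 29.7 to 35.1) and 2898 of 17661 genes with neither (16.4%, 15.9 to 16.96). The reference names no operons, so close spacing is the only measure given, and no test was made. The interval for genes with a one-strand peak overlapped that for genes with a divergent peak and lay above that for genes with neither.

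Genes of 28 lists were then counted, beside the 5.77% of all protein-coding genes with a one-strand peak and the 5.86% with a divergent one. The counts are over whole lists, no list was tested, and the median pooled rank over all one-strand peaks was 1431.5. Among the synMuv B genes outside DREAM, 6 of 17 had a one-strand peak (35.3%) and 0 had a divergent one. With windows that ended 500 bp before and 100 bp after starts, 3 of the 17 had a one-strand peak. Besides lin-13, the 6 were ubc-9, a SUMO-conjugating enzyme gene (ranks 281 and 425 in the replicates), smo-1, which encodes SUMO (740 and 1185), lin-36, which encodes a THAP-domain protein (575 and 415), mep-1, which encodes a zinc-finger partner of the Mi-2 protein LET-418 (571 and 1349), and lin-40, which encodes an MTA-type protein (2772 and 1621). The ranks of lin-13 lay ahead of the other 5 in both replicates. GAGA lay at 4 of the 6 peaks and a CHR-like word at 3, beside 32.7% and 37.8% of all one-strand peaks.

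Of the 8 DREAM genes, 3 had a one-strand peak and 4 a divergent one. The peak of lin-9, a core subunit gene, ranked 51 and 83 in the replicates, 147 bp before the start. Those of lin-52 (1633 and 2059) and dpl-1 (4214 and 2581), a DP-type partner of E2F, stood far below it. The dpl-1 peak was not among the 3040 strongest entries of replicate 1.

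Ribosomal protein genes had one-strand peaks above the background share and divergent peaks more often still. Of 31 small-subunit genes, 11 had a one-strand peak (35.5%) and 19 a divergent one, and of 48 large-subunit genes, 13 (27.1%) and 23 did. The median pooled rank of the 13 large-subunit peaks was 271 and that of the 11 small-subunit peaks 1079, both ahead of 1431.5. Among them rps-28 ranked 43 and 60 in the replicates, rps-24 168 and 245, rps-17 409 and 211, and rpl-11.2 68 and 72. For mitochondrial ribosomal proteins the counts were 10 of 66 (15.2%) and 18, led by mrpl-28 (142 and 143) and mrpl-55 (197 and 164). GAGA lay at 6 of the 11 small-subunit peaks, 4 of the 13 large-subunit peaks and 3 of the 10 mitochondrial ones, beside 32.7% of all one-strand peaks.

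Vacuolar genes were counted more often with one-strand than with divergent peaks. Of 49 vacuolar sorting and autophagy genes, 15 had a one-strand peak (30.6%) and 5 a divergent one, and of 20 vacuolar ATPase genes, which encode the proton pump, 5 (25%) and 2 did. Leading members were vps-60 (164 and 167 in the replicates) and vps-4 (192 and 285), both of the ESCRT membrane-remodelling machinery, and epg-7 (185 and 257), an autophagy gene. Both ATG8-family genes had peaks, lgg-2 at ranks 312 and 468 and lgg-1 at 604 and 434. Among the pump subunits vha-12 ranked 412 and 253, vha-15 1136 and 423, and vha-9 978 and 528, each higher in replicate 2. GAGA lay at 4 of the 5 vacuolar ATPase peaks and 5 of the 15 vacuolar sorting and autophagy peaks, beside 32.7% of all one-strand peaks.

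Genes of energy production and protein turnover had both kinds of peak. Of 45 respiratory chain and ATP synthase genes, 9 had a one-strand peak (20%) and 13 a divergent one; after cox-5A and cox-5B came asb-2, an ATP synthase subunit gene, at ranks 342 and 217. Of 33 proteasome genes, 6 (18.2%) and 12 did, led by rpn-11 (436 and 531), the deubiquitinase subunit, pbs-3 (904 and 732) and rpt-6 (559 and 1005). None of the 8 CCT chaperonin genes had a one-strand peak, and 7 had a divergent one, while 1 of the 8 had a one-strand peak with the narrower windows of 500 bp before and 100 bp after starts. Of 20 heat shock protein genes, 2 had one-strand peaks, hsp-1 (146 and 119), a constitutive Hsp70 gene, and hsp-3 (124 and 299), an Hsp70 of the endoplasmic reticulum, and 5 had divergent peaks.

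Among genes of RNA and protein synthesis, 8 of 42 translation factors had a one-strand peak (19.0%) and 14 a divergent one, led by eif-3.C (106 and 97), eef-1A.2 (176 and 173) and eif-3.B (253 and 125). Of 48 genes on the splicing list 6 (12.5%) and 17 did. The 6 were led by snr-4 (202 and 150), an Sm protein gene, rsp-6 (pooled rank 209), an SR protein gene, and snrp-3 (411 and 458). They include sft-4 (2698 and 3045), for which no role in splicing is shown here. Of 32 aminoacyl-tRNA synthetase genes 3 (9.38%) and 4 did: rars-1 (1693 and 1827), kars-1 (2265 and 1586) and vars-1 (2104 and 1748). Of 58 RNA polymerase, Mediator and TAF genes 8 (13.8%) and 13 did, led by rpb-11 (pooled rank 120), taf-12 (293 and 202) and mdt-22 (887 and 584). The rpb-8 and rars-1 entries were the same peak.

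Nuclear transport and cell cycle genes carried CHR-like words at most of their one-strand peaks. Of 40 nuclear pore and transport genes 9 had a one-strand peak (22.5%) and 12 a divergent one, led by imb-3, an importin beta gene (138 and 153), npp-8 (186 and 183) and ima-2, an importin alpha gene (715 and 740). Without replicate 2, 14 of the 40 had a one-strand peak. A CHR-like word lay at 8 of these 9 peaks and GAGA at 0. Of 50 cell cycle and replication genes 8 (16.0%) and 13 did, led by pcn-1, which encodes PCNA (426 and 266), mcm-4, a replicative helicase gene (775 and 338), and sas-4, a centriole gene (1009 and 459). A CHR-like word lay at 7 of these 8 peaks and an E2F-like word at 3, against 37.8% and 6.31% of all one-strand peaks. Over all promoters, centred 150 bp upstream of the start, those shares were 46.4% and 2.75%. In other lists a CHR-like word lay at 5 of the 8 translation factor peaks and 2 of the 8 small GTPase and vesicle coat peaks. None of these shares was tested. The peak counted for sas-4 lay 716 bp before the sas-4 start and nearer the start of F10E9.11. Of 51 small GTPase and vesicle coat genes 8 (15.7%) and 11 did, led by sec-24.1 (452 and 336), sec-3 (513 and 413) and copb-2 (1326 and 962).

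**Figure D5:**
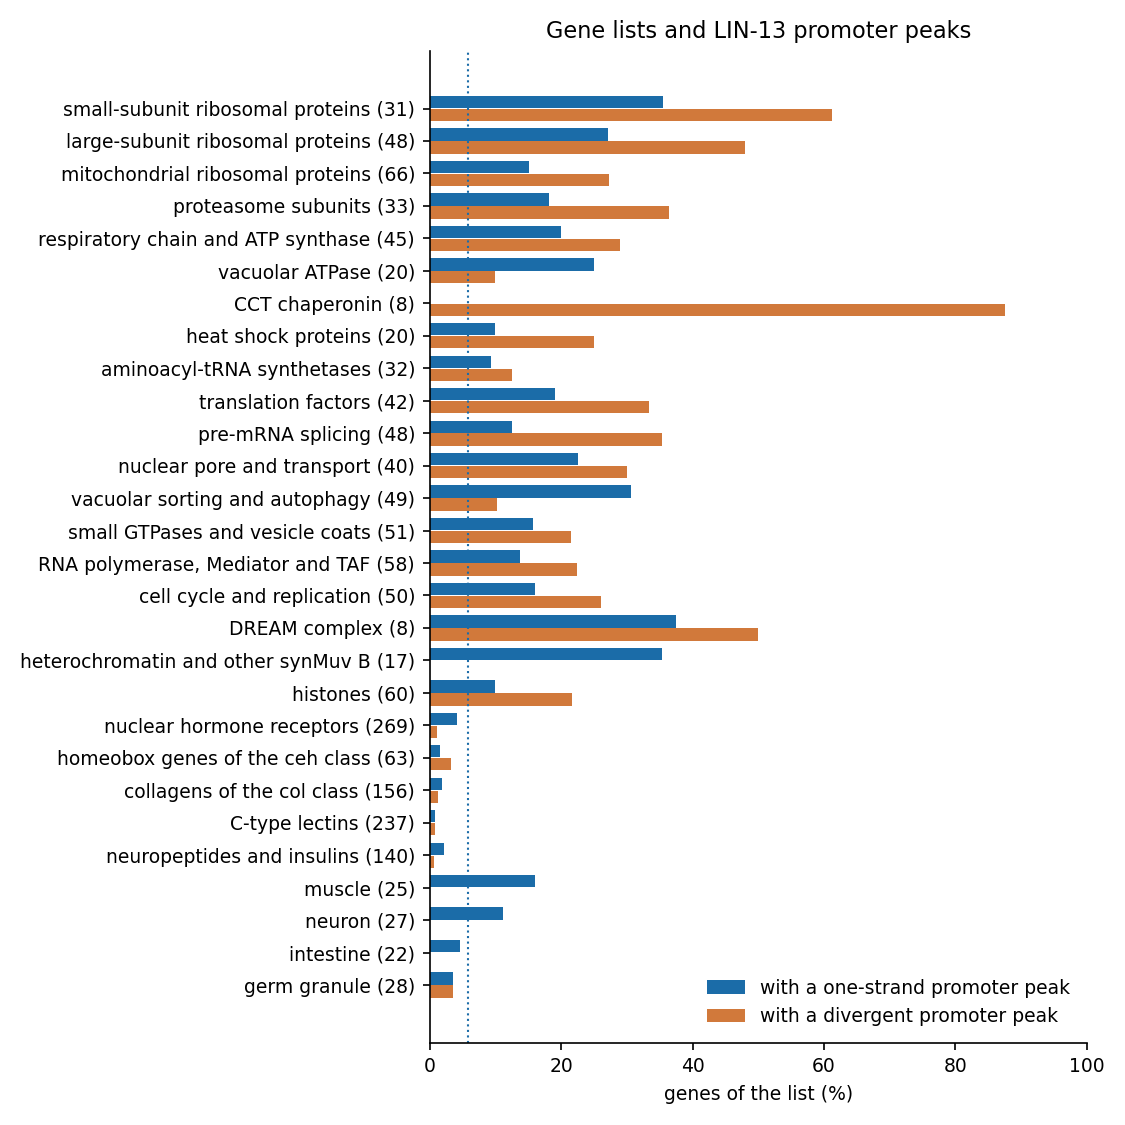
Share of the genes of each list (%, x axis; number of genes in brackets) with a one-strand promoter peak (upper bar) and a divergent promoter peak (lower bar); the dotted line is the 5.77% of all protein-coding genes with a one-strand peak. The bar for one-strand peaks is the longer for vacuolar ATPase, vacuolar sorting and autophagy, and heterochromatin and other synMuv B genes. It is also the longer for muscle, neuron, intestine, nuclear hormone receptor, collagen, and neuropeptide and insulin genes. The bars are equal for C-type lectin and germ granule genes. In the remaining lists, among them ribosomal protein, proteasome, splicing and CCT genes, the one-strand bar is the shorter.

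Large families of tissue-restricted genes stayed near or below the background share. Of 269 nuclear hormone receptor genes 11 (4.09%) had a one-strand peak and 3 a divergent one, led by nhr-49 (327 and 792), a regulator of fat metabolism, nhr-1 (501 and 790) and nhr-119 (870 and 571); GAGA lay at 6 of the 11, beside 32.7% of all one-strand peaks. The counts were 2 of 237 for C-type lectins (clec-126 at 408 and 788, clec-53 at 1520 and 2769), with 2 divergent, and 3 of 156 for cuticle collagens, with 2 divergent. These collagens were col-63 (1054 and 1116), col-185 (1490 and 2545) and col-166 (3399 and 2652). Of 140 neuropeptide and insulin genes 3 had a one-strand peak and 1 a divergent one: ins-39 (114 and 76), flp-23 (1804 and 1466) and ins-33 (4013 and 2867). The insulin-like gene ins-39 stood far ahead of the other two. Of 63 ceh homeobox genes 1 had a one-strand peak, ceh-20 (1244 and 4557), and 2 had divergent peaks; the 1 became 2 without replicate 1 and 3 without replicate 2.

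Histone, muscle and neuron genes had one-strand peaks above the background share of 5.77%, on counts of at most 6 genes that moved under some alternatives. Of 60 histone genes 6 (10%) had one and 13 had a divergent one, led by his-37 (37 and 64), his-72, an H3.3 variant gene (1119 and 516), and his-24, a linker histone gene (1248 and 671); replicative histone genes are near-identical copies, so reads may be split among them. Muscle genes gave 4 of 25 (16%), namely unc-112 (570 and 1595), unc-45 (1570 and 3429), act-4 (1031 and 3399) and tnt-2, whose ranks of 20788 and 2088 differed most among the 4. Neuron genes gave 3 of 27 (11.1%), namely rgef-1 (2519 and 1356), snb-1 (4322 and 1313) and egl-21 (1717 and 2451), and intestine genes 1 of 22 (4.55%), erm-1 (6009 and 2207), which was 0 of 22 without replicate 2. None of the muscle, neuron or intestine genes had a divergent peak. Of 28 germ granule genes 1 (3.57%) had a one-strand peak, cgh-1, a DEAD-box RNA helicase gene (39 and 58), and 1 had a divergent one.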

How the data were processed

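LIN-13 peaks came from 2 biological replicates in 1 group. The authors deposited peak lists on ce10 and ce11 for each replicate and for the pooled replicates, and a list thresholded by the irreproducible discovery rate, per the file listings. Nothing states the scale of the deposited signal column, so entries were ranked by it within a list. The deposited −log10 q column, made by the authors' peak calling, was not used. Aligner, caller, versions and threshold: not given in the sources used here. The control named in the labels was not analysed here. Per the labels, fragments were 150 to 350 bp. Depth is unknown, and intervals cover counting over peaks or genes only.

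The thresholded ce11 list held 3040 entries, of which 27 were mitochondrial and left out. Ranks in a replicate are those of the strongest entry overlapping by at least 1 bp. Gene starts came from Ensembl release 115 models on WBcel235. Words were searched on both strands within 75 bp of each summit. Members, lists, words and tests were chosen with earlier results of these data known. The genes named were the nearest to the 12 strongest one-strand peaks, up to 3 leading members of each list, every synMuv B and DREAM member with a peak, and the genes at the window edges. The genes lgg-1, lgg-2, rpb-8, sft-4 and F10E9.11 were added after their values were seen. Names cdc-20 and opt-2 were unmatched. Alternatives were the 1520 strongest entries, 1 replicate alone, other windows, starts, biotypes and overlaps, and 1 summit per interval. Fisher's exact tests used scipy 1.17.1 and statsmodels 0.14.6 in Python 3.11.15 with numpy 2.4.6 and pandas 2.3.3, and figures used matplotlib 3.10.9. The tests were tested on simulated data.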

Additional observations from a re-analysis of the deposited data

How the results depend on the processing

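With the 1520 strongest entries there were 626 one-strand peaks and 636 genes. There 4 of the 12 properties differed between one-strand and divergent peaks, and 3 of 6 orientation intervals excluded an even split. Being among the 1520 strongest could not be tested in that setting, and this list is shorter by construction. Within 50 bp of the summit in place of 75 bp, 5 properties differed. Among summits 0 to 250 bp upstream, chosen after seeing the data, 3 properties differed and 3 orientation intervals excluded an even split, and among autosomal peaks, also chosen after seeing the data, 5 properties differed, with location on X not testable. With a single replicate in place of the thresholded list the counts ranged from 1125 to 1150 peaks, 1131 to 1149 genes and 7 to 9 properties, and 4 orientation intervals excluded an even split in each. Support in both replicates could not be tested with a single replicate. When genes of every biotype but piRNA decided which promoters are one-strand, the odds ratio reversed for GC above the median (0.806, Fisher's exact adjusted p = 0.0372) and for T-blocks (1.02, Fisher's exact adjusted p = 0.906). It also reversed for GC within 50 bp of the summit (0.933) and for E2F-like words, which passed in no alternative: 1.26 within 50 bp, 1.01 within 100 bp, 0.862 to 1.02 without 1 replicate (1.02 without replicate 2), 1.17 when windows ended 500 bp before and 100 bp after starts, and 1.06 among summits 0 to 250 bp upstream. The causes were not tested. Of the single differences recomputed, 130 kept their direction and side of the threshold, 16 were no longer past it, 9 passed anew (Sp1-like words, GC and the E-box) and 8 reversed. GAGA, location on X and soft-masking kept theirs in every alternative that gave a value. Of the list counts recomputed, 158 stayed within 1.5 times and 38 did not, of which those moved by leaving out a replicate are given with their lists. No paired analysis was possible because both replicates belong to 1 group. Depth is unknown, so what it limits cannot be measured here.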

Other observations

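Octamers that were frequent at one-strand peaks on chromosomes I to III were listed from 32454 compared, and their shares were then counted on chromosomes IV, V and X, which the listing did not use. AGACGCAG, which lies within CTGCGTCTC read on the other strand, lay at 86 of 619 one-strand summits on I to III (13.9%) and at 77 of 537 on IV, V and X (14.3%). Among one-strand entries that were not thresholded it lay at 2.39% on IV, V and X, and among all divergent peaks at 8.06%. AAACGCGC lay at 9.68% of one-strand summits on IV, V and X, at 7.71% of all divergent summits and at 0.922% of the entries that were not thresholded. AAGTGCGC lay at 5.96%, 8.06% and 0.273% of the same regions, GCAAACAC at 5.96%, 10.3% and 1.20%, and GCGCTCCA at 4.10%, 10.2% and 0.786%. These octamers are not among the 7 words, apart from the overlap stated, and no test was made of their shares.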
